A study of Mus musculus with 13 samples.

Results

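The genotype difference that presumptive IVD and presumptive vertebrae had in common was measured over all 13 arrays of the series, 7 mutant against 6 control, with tissue as a covariate. The tissue came from the lumbar region of mouse embryos at E13.5 and was taken by laser capture. Control arrays (3 of IVD and 3 of vertebrae) came from embryos with the genotype Cre-;Tgfbr2lox/wt, so that the controls too carried 1 floxed allele and no Cre. Mutant arrays were 4 of IVD, labelled Cre+;Tgfbr2lox/lox, and 3 of vertebrae, labelled Cre+;Tgrbr2lox.lox. In the mutants Cre was driven by the Col2a promoter, which acts in cartilage-forming cells, so captured cells of other kinds need not have lost the receptor. The mean log2 value of 20 cartilage matrix genes, relative to the median over arrays and used as a check of the tissue labels, was higher in vertebrae (0.07 to 1.03 in controls and 0.31 to 1.03 in mutants) than in IVD (-1.20 to 0.13 and -1.71 to -0.01), with an overlap between control IVD 2 and control vertebrae. Mutant IVD 3 was closer to vertebrae in other genes. Its mean of 11 joint interzone genes was -0.34, against -0.42 to -0.17 in control vertebrae and 0.41 to 0.80 in control IVD. The other mutant IVD arrays had 0.37 to 0.80. Matn1, a cartilage matrix gene, was 0.60 in mutant IVD 3 and -3.69 to -2.49 in those arrays. Whether this comes from the genotype or from the piece cut was not tested. Control IVD and control vertebrae were taken from the same mice, without a label that ties an IVD array to a vertebrae array of the same mouse. The study's methods describe capture of IVD and then of the adjacent vertebrae for both genotypes, so mutant arrays may share mice too. The p-values below treat the 13 arrays as separate samples and are therefore too small. Of 45037 probe sets, 1232 annotated to X- and Y-linked genes were left out of all counts and names. This left 43805 probe sets, 33796 of them with the name of 1 gene, and 17566 of 18193 named genes. Of the probe sets kept, 9160 had no gene name, so they could not be screened for sex linkage and remain in the counts.

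TGFBR2 is the type II receptor that binds TGF-β ligands and starts signalling through type I receptors and the receptor Smads, Smad2 and Smad3. In the forming spine this pathway is known for its part in setting the fibrous annulus of the disc apart from the cartilage of the vertebral bodies, which both arise from sclerotome. BMPs, the other large branch of the family, signal through Smad1, Smad5 and Smad9 and induce the Id genes.

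The arrays differed in ways that the genotype labels do not name. Xist marks cells with an inactive X chromosome. It was high in 8 arrays that had little Y-linked signal, namely the 6 controls, mutant IVD 3 and mutant vertebrae 3. The other 5 mutant arrays had Y-linked signal and low Xist. Genotype and sex therefore overlap, and for those 5 arrays they cannot be told apart. Genes of fetal liver were high in control IVD 1 (4.98 as the mean log2 value of 11 genes), control vertebrae 1 (5.15), mutant IVD 4 (3.29) and mutant IVD 3 (2.44), against -0.31 to 0.30 in the other 9. Mutant vertebrae 1 had the widest values, with a standard deviation of 0.743 over probe sets against 0.334 to 0.524 in the other arrays. The 3-prime minus 5-prime signal of Gapdh and Actb, a measure of RNA integrity, was higher in mutant arrays by 0.39 and 0.45 on the log2 scale, with overlapping ranges. Probe sets whose names end in _s_at or _x_at may detect several transcripts. All values are log2 signals relative to the median of each probe set over the 13 arrays. Levels cannot be recovered from them, signal over background is therefore unknown, and precision is set by how many arrays there are.

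No probe set passed limma's test of genotype over both tissues at an adjusted p under 0.05 (0 of 43805, 0%), and the smallest adjusted p was 0.332. At an unadjusted p under 0.05 there were 2056 probe sets (4.69%), 1400 higher in mutants (3.2%) and 656 lower (1.5%). If no probe set differed, about 0.05 of them would pass on average, and 4.69% is below that share. The unequal variance test named in the study's methods gave 1572. With the control numbers taken as mice in a random block the count was 891, 576 higher and 315 lower. After quantile normalization the split was 1208 higher and 1052 lower, so that 53.5% were higher in place of 68.1%. Without the 2 control arrays numbered 3 it was 1047 higher and 1711 lower, or 38% higher. The larger differences were divided evenly, with 73 probe sets at least 2-fold higher at an unadjusted p under 0.05 (0.167%) and 66 at least 2-fold lower (0.151%). The interaction of tissue and genotype also passed for none (0), and 606 had an unadjusted p below 0.05. The verbs rise and fall are therefore not used for any gene below, and differences are given as values.

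Complete separation of the 13 arrays by genotype was rare. By ordering alone some probe sets would separate even if genotype made no difference, so separation is given as a description. In 31 probe sets every mutant array was above every control array (0.0708%), and in 8 every mutant array was below every control array (0.0183%). Because 7 of 13 arrays are mutant and each probe set has a median of 0, the mutant array nearest to the controls has the value 0.00 in each of these. The gap between the genotypes was small, 0.00284 to 0.372 with a median of 0.0295. Of the 39 probe sets, 28 carried the name of 1 gene, 21 higher and 7 lower in mutants, and 11 had no name. The mean difference was at least 2-fold in 5, and in 3 it was at least 2-fold in each tissue. After quantile normalization 34 probe sets separated the genotypes, 24 of these 39 among them. Separation within IVD and also within vertebrae, without comparing the tissues, was met by 111 probe sets with higher values in mutants (0.253%) and 27 with lower values (0.0616%).

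**Figure D1:**
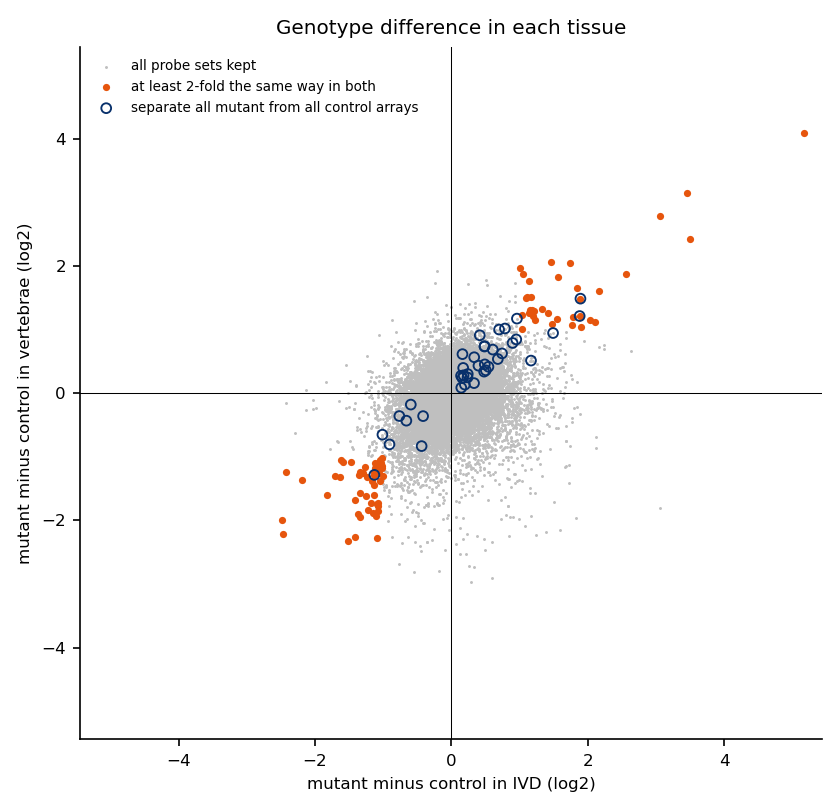
Difference between mutant and control means in IVD (horizontal axis, log2) and in vertebrae (vertical axis, log2) for the 43805 probe sets kept. Orange points are the 86 probe sets at least 2-fold in the same direction in both tissues, and blue circles the 39 that separate all mutant from all control arrays, most of which lie within 1 log2 unit of 0.

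Among the named genes higher in every mutant array, Cadps2 and Lama2 had the largest differences. Cadps2 encodes an activator of dense-core vesicle secretion. In the control arrays Cadps2 had values of -1.31, -1.42 and -1.14 in IVD and of -0.39, -1.37 and -0.37 in vertebrae. In the mutant arrays they were 0.32, 1.50, 0.00 and 0.61 in IVD and 0.14, 1.19 and 0.99 in vertebrae. It had the widest gap between the genotypes, 0.372, and a difference of 1.70 (standard error 0.27, adjusted p = 0.332, limma), or 3.26-fold, with 1.90 in IVD and 1.48 in vertebrae. Lama2 encodes the laminin α2 chain of basement membranes. Its values were -0.29, -0.75 and -1.13 in control IVD and -0.66, -1.15 and -0.78 in control vertebrae. Mutant IVD had 0.08, 0.34, 0.12 and 0.42, and mutant vertebrae 0.33, 0.00 and 0.60. Every mutant array was above the highest control, and the difference was 1.06 (standard error 0.16, adjusted p = 0.332, limma), or 2.08-fold, with 0.96 in IVD and 1.17 in vertebrae. Cadps2 and Lama2 are each read by a single probe set. Efna5 encodes ephrin-A5, a membrane-bound ligand of Eph receptors. Control IVD arrays had Efna5 values of -0.35, -0.14 and -0.74, and control vertebrae arrays of -0.21, -0.02 and -0.25. Those of mutant IVD were 0.11, 0.50, 0.19 and 0.29, and those of mutant vertebrae 0.00, 0.38 and 0.74. Its difference was 0.61 (standard error 0.14, adjusted p = 0.671, limma), but the other probe set of the gene stood at 0.05.

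Signalling genes among those higher in mutants included a ligand of the deleted receptor. Tgfb2 encodes a TGF-β ligand. In the control arrays Tgfb2 had values of -0.11, -0.28 and -0.22 in IVD and of -0.54, -0.50 and -0.25 in vertebrae. In the mutant arrays they were 0.12, 0.27, 0.45 and 0.32 in IVD and 0.90, 0.00 and 0.01 in vertebrae. The highest control array was -0.11, and the difference was 0.60 (standard error 0.15, adjusted p = 0.74, limma), with 0.49 in IVD and 0.74 in vertebrae. The other 3 probe sets of Tgfb2 had differences of 0.87, 0.76 and 0.45, and the mean of the 4 probe sets also separated the genotypes, with a difference of 0.67 (standard error 0.15). Id2 encodes an inhibitor of helix-loop-helix factors and is a target of BMP signalling. Its values were -0.04, -0.98 and -0.45 in control IVD and -0.17, -1.25 and -0.21 in control vertebrae. Mutant IVD had 0.30, 0.00, 0.13 and 0.76, and mutant vertebrae 0.43, 0.84 and 0.14. The difference was 0.89 (standard error 0.22, adjusted p = 0.734, limma), and the other 2 probe sets gave 0.47 and 0.39 without separating the arrays. In the 8 arrays with high Xist the difference of Id2 was 0.65 and that of Tgfb2 0.54.

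The other genes of this kind named by rank of p have cellular or metabolic roles. Mast4, a microtubule-associated kinase, ranged from 0.00 to 0.82 with a median of 0.13 in the mutant arrays, and from -0.81 to -0.09 with a median of -0.59 in the control arrays. Its 8 probe sets were all higher in mutants by their means, by 0.07 to 0.84. Tcn2, the transcobalamin that carries vitamin B12, ranged from 0.00 to 0.42 with a median of 0.25 in the mutant arrays, and from -0.36 to -0.03 with a median of -0.25 in the control arrays, and all 5 of its probe sets were higher by their means, by 0.32 to 0.70. Pgpep1, a peptidase, ranged from 0.00 to 0.50 with a median of 0.34 in the mutant arrays, and from -0.88 to -0.01 with a median of -0.62 in the control arrays. Here the other 2 probe sets stood at -0.03 and -0.32, so the gene as a whole is not described by the one that separates. Osbpl7, a lipid-binding protein, had a difference of 0.64 on one probe set and -0.04 on the other. Flnc, which encodes the actin cross-linker filamin C, differed by 0.60 (standard error 0.16, adjusted p = 0.763, limma), with a gap of 0.00784. Lrpap1, a chaperone of LDL receptor family proteins, differed by 0.48 (standard error 0.14, adjusted p = 0.825, limma), and Cdkl3, a kinase, by 0.41 (standard error 0.12, adjusted p = 0.847, limma). The other probe set of Cdkl3 stood at -0.16.

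Of the 7 genes lower in every mutant array, Chek1 and Cdca5 belong to the cell cycle. Chek1 encodes the checkpoint kinase that acts during DNA replication. Control IVD arrays had Chek1 values of 0.59, 0.67 and 0.32, and control vertebrae arrays of 0.10, 0.20 and 0.11. Those of mutant IVD were -0.05, 0.00, -0.35 and -0.14, and those of mutant vertebrae -0.41, -0.43 and -0.04. The difference was -0.55 (standard error 0.11, adjusted p = 0.445, limma), with -0.66 in IVD and -0.43 in vertebrae, and 4 of its 5 probe sets were lower by their means. Cdca5 encodes sororin, which holds sister chromatids together. In the control arrays Cdca5 had values of 0.66, 0.91 and 0.15 in IVD and of 0.82, 0.03 and 0.00 in vertebrae. In the mutant arrays they were -0.04, -1.23, -0.95 and 0.00 in IVD and -1.84, -0.40 and -0.77 in vertebrae. The genotypes nearly touched, with a gap of 0.00284, while the difference was -1.20 (standard error 0.28, adjusted p = 0.671, limma), 2.3-fold lower in mutants, and the other probe set of Cdca5 stood at -0.97.

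Stc2 encodes stanniocalcin-2, a secreted glycoprotein. Its values were 0.76, 0.85 and 0.48 in control IVD and 0.11, 0.88 and 0.26 in control vertebrae. Mutant IVD had -0.01, -0.09, -0.55 and -0.60, and mutant vertebrae 0.00, -0.09 and -0.62. Its difference was -0.84 (standard error 0.17, adjusted p = 0.461, limma), and -1.14 in the 8 arrays with high Xist. The other probe sets of Stc2 stood at -0.03 and -0.27 without separating the arrays. Ydjc, named for a sugar deacetylase, ranged from -1.05 to 0.00 with a median of -0.40 in the mutant arrays, and from 0.03 to 1.14 with a median of 0.35 in the control arrays. The mutant IVD arrays lay close below the control vertebrae arrays, and the difference was -0.86 (standard error 0.14, adjusted p = 0.332, limma), with -0.91 in IVD and -0.81 in vertebrae. Cltb, a clathrin light chain, differed by -0.57 (standard error 0.12, adjusted p = 0.445, limma), with all 3 probe sets lower by their means. Knop1, a nucleolar protein, differed by -0.62 (standard error 0.12, adjusted p = 0.411, limma), but its other 2 probe sets stood at 0.05 and 0.30. Srbd1, a predicted RNA-binding protein, differed by -0.39 (standard error 0.11, adjusted p = 0.857, limma).

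**Figure D2:**
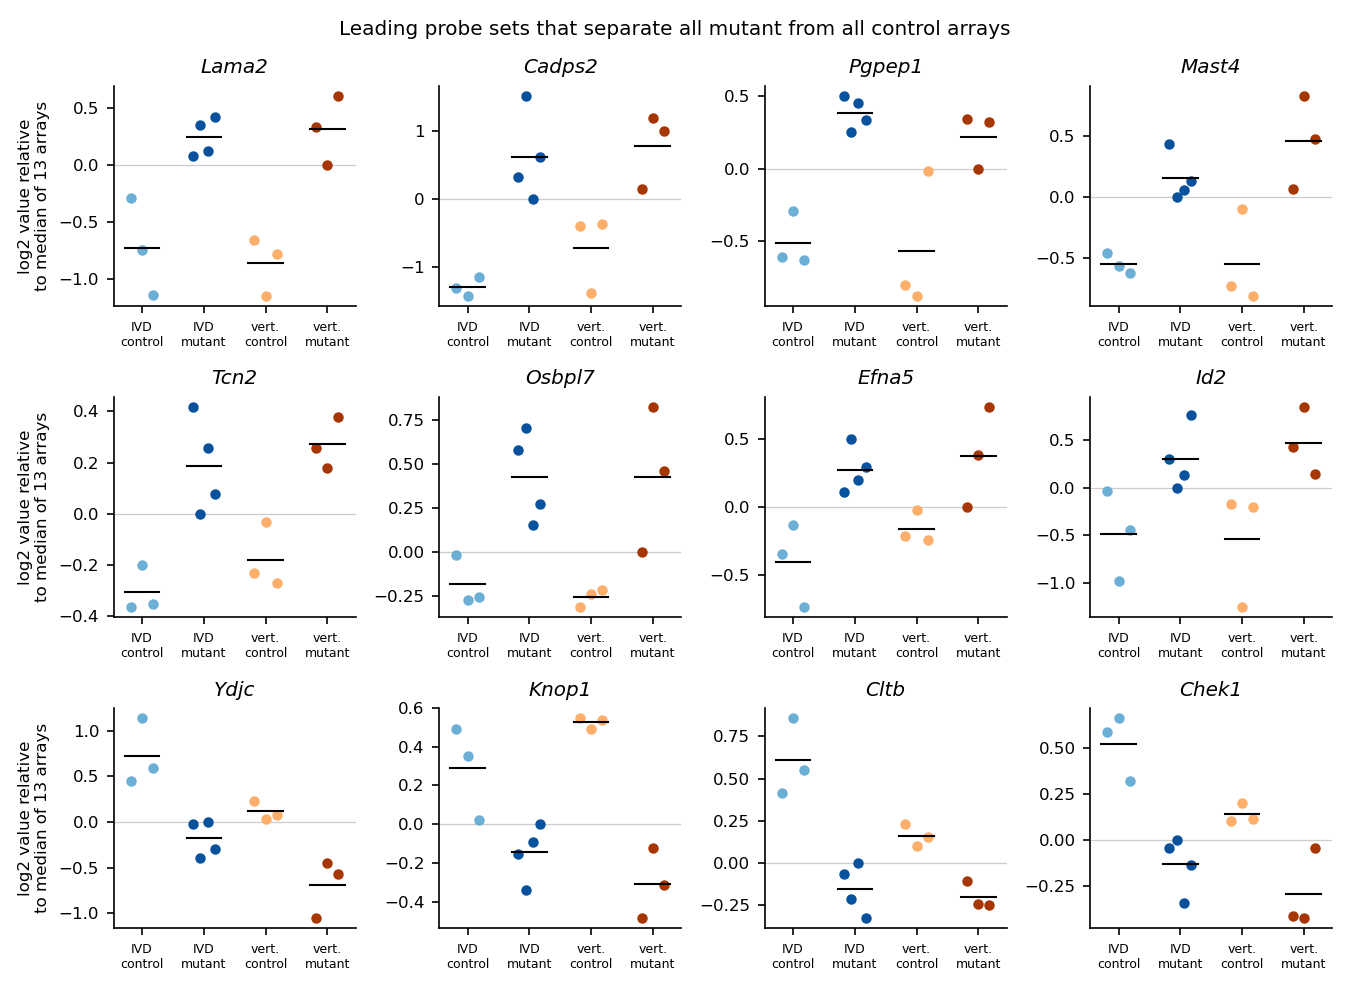
Log2 value relative to the median of 13 arrays (vertical axis) in each array, by group (horizontal axis), for 8 probe sets with higher and 4 with lower values in mutants, with a bar at the group mean. In each panel the 7 mutant arrays lie on 1 side of the 6 control arrays, with gaps from 0.0146 for Pgpep1 to 0.372 for Cadps2.

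The starts of 4 of these genes are shown, the 3 named genes at least 2-fold different over both tissues and the ligand Tgfb2, since TGF-β and BMP signals act on promoters through Smads. The sequences are RefSeq's for GRCm38.p6, each 300 bases around the start of the gene, written 5′ to 3′ on its strand. Capitals mark CAGAC (or GTCTG), the short Smad-binding box, in Lama2, Cadps2 and Tgfb2, and TTTGAA (or TTCAAA), a short element of cell cycle promoters, in Cdca5. Lama2 lies at chr10:27616893-27617192, Cadps2 at chr6:23839372-23839671 and Tgfb2 at chr1:186705940-186706239, all on the minus strand, and Cdca5 at chr19:6084847-6085146 on the plus strand.
Lama2: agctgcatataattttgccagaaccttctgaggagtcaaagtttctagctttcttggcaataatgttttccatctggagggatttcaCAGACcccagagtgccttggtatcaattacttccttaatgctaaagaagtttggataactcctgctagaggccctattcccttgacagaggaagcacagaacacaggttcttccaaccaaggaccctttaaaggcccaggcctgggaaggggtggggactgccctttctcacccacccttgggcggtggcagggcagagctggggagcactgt
Cadps2: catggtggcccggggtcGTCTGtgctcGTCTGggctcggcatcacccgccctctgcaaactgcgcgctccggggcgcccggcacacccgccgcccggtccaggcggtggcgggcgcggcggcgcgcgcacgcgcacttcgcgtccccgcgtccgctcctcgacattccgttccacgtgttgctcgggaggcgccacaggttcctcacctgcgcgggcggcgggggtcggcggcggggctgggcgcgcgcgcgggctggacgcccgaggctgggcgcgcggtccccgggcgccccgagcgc
Tgfb2: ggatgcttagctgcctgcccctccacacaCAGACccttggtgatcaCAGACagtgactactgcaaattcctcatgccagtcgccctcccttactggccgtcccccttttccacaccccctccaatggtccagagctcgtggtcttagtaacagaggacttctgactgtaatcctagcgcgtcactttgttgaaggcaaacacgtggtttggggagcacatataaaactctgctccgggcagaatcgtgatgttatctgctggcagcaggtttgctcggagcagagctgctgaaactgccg
Cdca5: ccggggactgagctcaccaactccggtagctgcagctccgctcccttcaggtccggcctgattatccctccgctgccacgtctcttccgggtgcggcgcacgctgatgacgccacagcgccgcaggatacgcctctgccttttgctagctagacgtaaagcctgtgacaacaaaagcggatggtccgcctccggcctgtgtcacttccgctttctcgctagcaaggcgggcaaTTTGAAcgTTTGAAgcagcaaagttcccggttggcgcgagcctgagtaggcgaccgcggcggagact
Of the 28 separating genes, 23 had a promoter in the table used, Ydjc not among them. CAGAC on either strand was in 13 of the 23 (56.5%), and in 49.7% of all 27025 promoters compared. Those were the first of this length listed for each gene, with 1 chromosome left out. CAGAC and TTTGAA cannot overlap, and GGCGCC, the same on both strands, can share at most 1 base with the former. The GC-rich site GGCGCC, known from BMP-responsive promoters, was in 6 of the 23 (26.1%), Id2 and Cadps2 among them, and in 12% of all, and TTTGAA in 1 of the 23 (Cdca5) and 18.1% of all. A match is a description of the letters and not of binding.

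The other 9 separating genes ranked below the 12 with the smallest p and are named after their values were seen. Igf1r, the receptor of insulin-like growth factors, Crebrf, a regulator of a transcription factor of secretory cells, Ptk6, a tyrosine kinase, Gabrg1, a GABA receptor subunit, Ppp2r5c, a subunit of protein phosphatase 2A, and Serpinb12, a serpin, were among them, with Bpifa1, Angel2 and Gm5113. Their mean differences were 0.12 to 0.44, all higher in mutants. Among the 28 genes, 24 have several probe sets, and in 15 of the 24 all probe sets had the same sign, while in 7 a second probe set had an unadjusted p under 0.05 in the same direction. When all probe sets of each gene were averaged first, 16 genes separated the genotypes. Lama2, Cadps2, Tgfb2, Mast4 and Bpifa1 were again higher and Ydjc lower. Hsd17b11, Spon1, Sema6a, Ptprd, Galc, Lrp1b, Spag16, Tgfbrap1, Snx19 and 9530059O14Rik, named here because of their values, were higher as gene means and had no single probe set in the first list. Sema6a, a semaphorin of axon guidance, differed by 0.34 and Tgfbrap1, which binds TGF-β receptors, by 0.21. At the level of gene means limma called 0 of 17566 genes (0%), with a smallest adjusted p of 0.112, reached by Lama2, Cadps2 and Lsamp.

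Larger differences shared by both tissues did not, with few exceptions, separate every array. At least 2-fold in the same direction in IVD and in vertebrae were 35 probe sets with higher means in mutants (0.0799%) and 51 with lower means (0.116%), while 26 differed at least 2-fold in opposite directions. Of the 35, 6 also separated the 5 arrays with Y-linked transcripts from the 8 with high Xist. They carry no gene name, reached a difference of 4.67 on the log2 scale, and whether they lie on a sex chromosome is not given in the sources used here. Dubr, a long noncoding RNA with a difference of -1.35, was the 1 of the 51 that divided the arrays by sex in the same manner. Only 2 of the 35 and 1 of the 51 separated all mutant from all control arrays.

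Hoxd10, a patterning gene of the posterior axis, led the developmental regulators among those with higher means. Control IVD arrays had Hoxd10 values of -0.64, -1.91 and -1.52, and control vertebrae arrays of 0.00, -3.30 and -1.57. Those of mutant IVD were 0.25, 0.63, 1.47 and 0.92, and those of mutant vertebrae -0.97, 0.52 and 0.37. Mutant IVD lay above all control arrays, but mutant vertebrae 1 lay below control vertebrae 1, and the difference was 1.90 (standard error 0.46, adjusted p = 0.734, limma), 3.74-fold. Saa1, a serum amyloid protein, was high in all mutant vertebrae arrays (1.87, 2.47 and 2.16) against 0.81, -0.84 and 1.02 in control vertebrae, while IVD arrays overlapped, and the difference was 1.69 (standard error 0.44, adjusted p = 0.788, limma). Prkg2, the cGMP-dependent kinase that promotes chondrocyte hypertrophy, stood at 1.55, 2.29 and 1.69 in mutant vertebrae and 0.82, 0.81 and 0.00 in control vertebrae. In IVD its values overlapped, from -3.22 to 0.33 in mutants and from -2.97 to -1.93 in controls. For Pdxdc1 and Tia1 the means rest on a few arrays. Pdxdc1 was between -3.61 and -3.19 in 4 control arrays and at 0.00 and 0.43 in the other 2, and -2.68 in mutant vertebrae 1. Tia1 was -4.80 and -4.77 in the control arrays numbered 3 and between -0.72 and 0.64 in all others. The other 3 probe sets of Pdxdc1 did not share the sign, nor did 3 of the 6 of Tia1.

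Of the 6 named genes with lower means in both tissues, Ucma, Aspn, Smoc2 and Ecrg4 encode secreted proteins. Ucma, a small secreted protein of early cartilage, had values of -0.50, 3.43 and 2.51 in control IVD and 0.00, 3.13 and 1.48 in control vertebrae. In the mutants it had -0.05, 0.03, -1.15 and -1.50 in IVD and -1.46, -0.01 and 0.11 in vertebrae, so that only the control arrays numbered 2 and 3 stood above the mutants. Its difference was -2.25 (standard error 0.64, adjusted p = 0.847, limma), 4.77-fold lower in mutants, while its other probe set stood at -0.16. Aspn, the proteoglycan asporin, differed by -1.81 (standard error 0.62, adjusted p = 0.912, limma), with -2.19 in IVD and -1.37 in vertebrae. In IVD mutant IVD 1 equalled control IVD 1 at 1.35, and in vertebrae mutant 3 (-0.72) lay within the control values, -1.07 to 0.41. Smoc2, a calcium-binding matrix protein, differed by -1.62 (standard error 0.45, adjusted p = 0.825, limma), and Ecrg4, a secreted peptide precursor, by -1.72 (standard error 0.55, adjusted p = 0.912, limma). Hand2, a limb and heart transcription factor, differed by -1.81 (standard error 0.64, adjusted p = 0.912, limma), while its other 2 probe sets stood at 0.07 and 0.16. The largest lower difference was that of Pcnp, a nuclear protein, at -2.35 (standard error 0.58, adjusted p = 0.734, limma). Pcnp was below every control array in all mutant arrays but mutant vertebrae 3 (0.68), and its other probe set stood at 0.19. Fmod, named for its 4 probe sets in this class after their values were seen, encodes the proteoglycan fibromodulin and differed by -1.51, -1.44, -1.40 and -1.38.

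No probe set of the targeted gene passed the test. Tgfbr2 is read by 3 probe sets, and whether their probes lie in exon 2, the floxed exon, was not analysed here, so that they do not check the deletion. Probe set 1425444_a_at differed by -0.01 (standard error 0.09) and 1422019_at by 0.20 (standard error 0.11). The third, 1426397_at, had values of 0.78, 0.99 and -0.52 in control IVD and of 1.31, 0.48, 0.00 and 0.30 in mutant IVD, which overlap. In vertebrae it had 0.00, -0.02 and -0.42 in controls and -2.10, -0.68 and -0.17 in mutants, of which mutant vertebrae 1 and 2 lie below all control arrays. Its difference was -0.33 (standard error 0.36) over both tissues, -0.84 in vertebrae and 0.10 in IVD.

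Gene lists use 1 value per gene, averaged over its probe sets, and stand beside all 17566 named genes, of which 10559 had higher means in mutants (60.1%), with a median of 0.04. At an unadjusted p under 0.05, 2.83% of named genes were higher and 1.78% lower, and no list member passed limma's test over all gene means, with a smallest adjusted p of 0.112. Among 15 TGF-β ligands, receptors and binding proteins, 7 were higher and 8 lower by their means, with a median of 0.00. Tgfb2 and Tgfbr3, the co-receptor betaglycan, had an unadjusted p under 0.05, and Tgfbr3 differed by 0.48 (standard error 0.16). Tgfb3, another TGF-β ligand, differed by -0.69 (standard error 0.42), with -0.71 in IVD and -0.66 in vertebrae. Of the 8 Smad genes, 6 were higher and 2 lower by their means, and none had an unadjusted p under 0.05. Smad6, an inhibitor of BMP signalling, stood furthest from 0, at -0.58 (standard error 0.47).

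Genes known to respond to TGF-β had 9 members higher and 15 lower of 24, with a median of -0.07. Fmod had a gene mean difference of -1.25 (standard error 0.47), with -0.91 in IVD and -1.65 in vertebrae. In the control arrays Fmod had values of 0.24, 1.68 and 0.60 in IVD and of -1.07, 0.45 and -0.32 in vertebrae. In the mutant arrays they were 1.07, 0.05, -1.86 and 0.47 in IVD and -2.80, -2.04 and -1.05 in vertebrae. Mutant vertebrae 1 and 2 and mutant IVD 3 lay below every control array, and the other 4 mutant arrays lay within the control range. Snai1, a regulator of mesenchymal fate, differed by 0.39 (standard error 0.13). The study also listed genes that TGF-β changed in cultured sclerotome, a list not drawn from these arrays. Fmod, Mkx, Scx and Bhlhe40 are in that list and also among the response genes above, so the lists overlap. Of 96 genes listed as induced, 46 were higher and 50 lower in mutants, with a median of -0.02. Of 56 listed as repressed, 40 were higher, with a median of 0.22, of 0.33 in IVD and of 0.04 in vertebrae. Without control replicate 1 in both tissues that median was 0.36 (48 of 56 higher). Of the 56, 11 had an unadjusted p under 0.05 and all 11 were higher. Gdf10, a TGF-β family ligand, differed by 1.29 (standard error 0.37), and Sned1, a matrix protein, by 1.11 (standard error 0.31). Ebf1, a transcription factor of the early B-cell factor family, differed by 0.97 (standard error 0.22), with 1.14 in IVD and 0.76 in vertebrae.

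BMP modulators and response genes were higher in 12 of 17, with a median of 0.26 and 4 at an unadjusted p under 0.05, all higher. The median was 0.16 without mutant vertebrae 3. The 4 genes were Gdf10, Bmper at 1.16 (standard error 0.43), Id3 at 0.76 (standard error 0.27) and Id2 at 0.58 (standard error 0.23). Bmper encodes a secreted modulator that binds BMPs, and Id3, like Id2, a helix-loop-helix inhibitor. Gdf5, a BMP family ligand of joints and disc, was among the 5 with lower means, at -0.91 (standard error 0.53), with -1.51 in IVD and -0.22 in vertebrae. In the Wnt list 11 of 18 were higher, with a median of 0.15, and the 5 genes with an unadjusted p under 0.05 were all higher. The Wnt median was 0.03 without control IVD 3. Wnt4, a ligand, differed by 0.93 (standard error 0.28), with 0.39 in IVD and 1.55 in vertebrae. Lef1 and Axin2, which are Wnt targets, differed by 0.45 (standard error 0.12) and 0.37 (standard error 0.13), and Wnt5a by 0.36 (standard error 0.12). In the hedgehog list 5 of 13 were higher, with a median of -0.12, which was 0.06 without control replicate 2 in both tissues, and Hhip, a hedgehog-binding protein, differed by -1.20 (standard error 0.52).

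Posterior Hox genes set regional identity along the trunk. All 14 measured members of groups 9 to 13 were higher by their means, with a median of 0.31 and 6 at an unadjusted p under 0.05. Of the 14, 9 were higher in both tissues, and the medians were 0.33 in IVD and 0.24 in vertebrae. Some differences were close to none, such as Hoxd12 at 0.01 and Hoxd11 and Hoxb13 at 0.05 each. The mean of the list was -0.20, -0.35 and -0.34 in control IVD and -0.23, -0.38 and -0.13 in control vertebrae. In mutants it was 0.35, 0.32, 0.37 and 0.24 in IVD and 0.07, 0.16 and 0.13 in vertebrae, above every control array. It was the 1 list of 37 whose mean separated the genotypes. Hoxd10 differed by 1.90, Hoxd9 by 1.30 (standard error 0.30) and Hoxc10 by 0.88 (standard error 0.37), the last with 1.65 in IVD and 0.00 in vertebrae. The median was 0.16 in the 8 arrays with high Xist (12 of 14 higher), 0.23 without mutant vertebrae 1 (10 of 14) and 0.25 after quantile normalization (11 of 14). Hox groups 4 to 8 were higher in 7 of 12, with a median of 0.04. Where along the lumbar region each piece was cut was not analysed here.

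Adhesion and guidance genes were also mostly higher by their means. Of 13 cadherins and protocadherins 12 were higher, with a median of 0.31 and 4 at an unadjusted p under 0.05, all higher. Pcdh17 differed by 0.996 (standard error 0.41) and Pcdh9 by 0.63 (standard error 0.19), with 0.86 in IVD and 0.38 in vertebrae for Pcdh9. The list median was 0.13 without the 2 control arrays numbered 2 and 0.19 without mutant IVD 4. In the axon guidance list 21 of 26 were higher, with a median of 0.17, of 0.28 in IVD and of 0.06 in vertebrae. Slit2, a secreted repellent, differed by 0.85 (standard error 0.34), with 1.43 in IVD and 0.19 in vertebrae, and Unc5c, a netrin receptor, by 0.77 (standard error 0.29), with 0.88 in IVD and 0.63 in vertebrae. Neuronal markers had opposite medians, 0.83 in IVD and -0.91 in vertebrae, with arrays from -0.61 to 2.97 in mutant IVD, -0.84 to 0.57 in control IVD, -0.77 to 0.40 in mutant vertebrae and -0.60 to 2.27 in control vertebrae. The part of neurons in the guidance values was not tested.

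Cell cycle genes were lower by their means in all 32 measured, with a median of -0.63, of -0.44 in IVD and of -0.73 in vertebrae, and 29 were lower in both tissues. An unadjusted p under 0.05 was reached by 12, all lower. Pcna, the replication clamp, differed by -1.10 (standard error 0.45). Its values were 2.29, 0.82 and -0.19 in control IVD and 1.91, -0.77 and 0.00 in control vertebrae. Mutant IVD had 0.71, -0.34, 0.00 and 0.33, and mutant vertebrae -1.65, -0.71 and -0.87. The 2 control arrays numbered 1 were the highest and mutant vertebrae 1 the lowest, and the other arrays overlapped. Ccne2 differed by -1.14 (standard error 0.60) and Kif20a, a mitotic kinesin, by -1.06 (standard error 0.50). The mean of the list was 0.91, 0.72 and -0.10 in control IVD, 0.97, -0.05 and -0.25 in control vertebrae, 0.48, 0.03, -0.23 and 0.00 in mutant IVD and -1.06, -0.35 and -0.16 in mutant vertebrae, and the genotypes overlapped in both tissues. Among the probe sets at least 2-fold lower in both tissues were also those of Kif11, Ncapg and Knl1, named after their values were seen.

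Control IVD 1 and control vertebrae 1, with the highest cell cycle means, are also the control arrays with liver and erythroid transcripts. Of 11 liver genes 10 were lower in mutants, with a median of -1.03, and their mean ranged from -0.25 to 4.98 in control IVD, -0.13 to 5.15 in control vertebrae, -0.31 to 3.29 in mutant IVD and -0.23 to 0.30 in mutant vertebrae. Of 9 erythroid genes 7 were lower, with a median of -0.61, and their mean ranged from -0.74 to 2.53, -0.20 to 2.69, -0.69 to 1.46 and -0.51 to 0.27 in the same groups. Centred values hold no level, so whether a marker was at 0 cannot be read. Without the 4 arrays with liver transcripts the cell cycle median was -0.22, with 29 of 32 lower, without control replicate 1 in both tissues it was -0.28, and without control vertebrae 1 alone -0.42. Fewer cells of a type and less RNA per cell cannot be told apart in such samples.

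**Figure D3:**
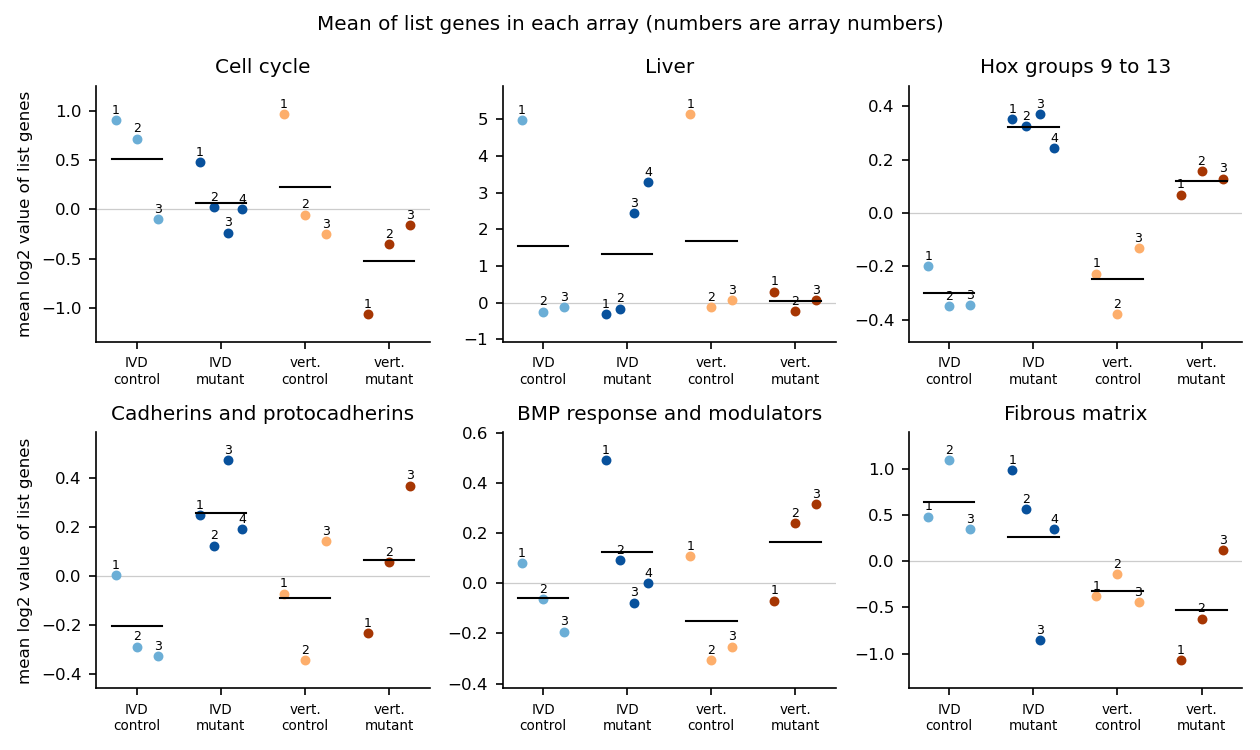
Mean log2 value of the genes of 6 lists (vertical axis) in each array, by group (horizontal axis), with array numbers beside the points and a bar at each group mean. Hox groups 9 to 13 lie above 0 in all 7 mutant arrays and below 0 in all 6 control arrays, while the cell cycle list is highest in the 2 control arrays numbered 1, which also carry liver transcripts at 4.98 and 5.15.

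Fibrous matrix genes were more often lower than higher by their means. Of 28 fibrous matrix genes 10 were higher and 18 lower by their means, 13 of them lower in both tissues, with a median of -0.13, and the 3 with an unadjusted p under 0.05 were lower. Their mean was 0.48, 1.09 and 0.35 in control IVD and 0.99, 0.57, -0.85 and 0.35 in mutant IVD, where only mutant IVD 3 was below the controls. The median was -0.02 without mutant IVD 3 (13 of 28 higher), -0.02 without control IVD 2 and -0.44 without mutant vertebrae 3. The genes with that p were Fmod, Aspn at -1.59 (standard error 0.61) and the fibril-associated collagen Col14a1 at -0.77 (standard error 0.34), and Ogn, the proteoglycan osteoglycin, differed by -1.25 (standard error 0.61). Among 20 cartilage matrix genes 12 were higher, with medians of -0.27 in IVD and 0.34 in vertebrae, and Ucma, at -1.20 (standard error 0.37), was the 1 gene with an unadjusted p under 0.05. All 10 genes of hypertrophic chondrocytes were higher by their means, with a median of 0.30, of 0.18 in IVD and of 0.46 in vertebrae, but only Prkg2, at 0.91 (standard error 0.39), had an unadjusted p under 0.05. That median was 0.18 without the liver arrays (8 of 10 higher) and 0.19 without mutant vertebrae 1 (8 of 10) or mutant vertebrae 2. Chondrocyte transcription factors were higher in 6 of 10, with a median of 0.07, and Sox9, their principal member, differed by 0.29 (standard error 0.15). Sclerotome transcription factors were higher in 9 of 13 (median 0.19, and 0.09 without control replicate 3 in both tissues), tendon genes in 3 of 8 (median -0.13, and 0.04 without mutant IVD 3), joint interzone genes in 5 of 11 (median -0.02), osteoblast and perichondrium genes in 5 of 7 (median 0.02), and genes of FGF and ERK feedback in 5 of 13 (median -0.01).

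The genes that the study's tables give as changed in mutant IVD kept their direction in the pooled comparison, but they are no independent evidence. They were chosen on the IVD arrays here, and among genes that differed between control IVD and control vertebrae, so the control vertebrae arrays were used too. Of the 13 genes taken from the table of lower genes all were lower by their means, with medians of -1.23 in IVD and -0.64 in vertebrae, 11 in both tissues. The remaining entry of that table, given there under an older symbol of Ldlrad4, was not in the list and differed by -0.29. Of the 9 listed as higher all were higher, with medians of 0.86 in IVD and 0.76 in vertebrae, all 9 in both. In vertebrae Lsamp, an adhesion molecule of the immunoglobulin family, differed by -0.83, and Erg, a transcription factor of endothelium and joints, by -1.06. Alcam, another adhesion molecule of that family, differed by 1.17 in vertebrae, Dtna, a dystrobrevin, by 0.99, and Bmper by 0.87. Fmod, Aspn, Ogn, Col14a1, Gdf5, Hhip, Ebf1, Pcdh9, Pcdh17 and Prkg2, with values above, are also among the 22. None of these 22 genes separated all mutant from all control arrays as a gene mean.

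Markers of other cell types are given by count. By their means, 13 of 17 endothelial genes, 9 of 9 Schwann cell and neural crest genes, 10 of 12 neural progenitor genes, 7 of 10 epithelial genes and 6 of 9 kidney and gonad genes were higher in mutants. The same held for 8 of 20 skeletal muscle genes, 5 of 11 macrophage genes and 3 of 7 notochord genes. Cdh19, a cadherin of Schwann cell precursors, differed by 1.05 (standard error 0.30), and Zic1, a zinc finger gene of neural progenitors, by 1.62 (standard error 0.50), with 2.44 in IVD and 0.67 in vertebrae. Immediate early genes were higher in 7 of 15 and hypoxia and glycolysis genes in 6 of 17. The part of these cells in the genotype values was not tested.

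**Figure D4:**
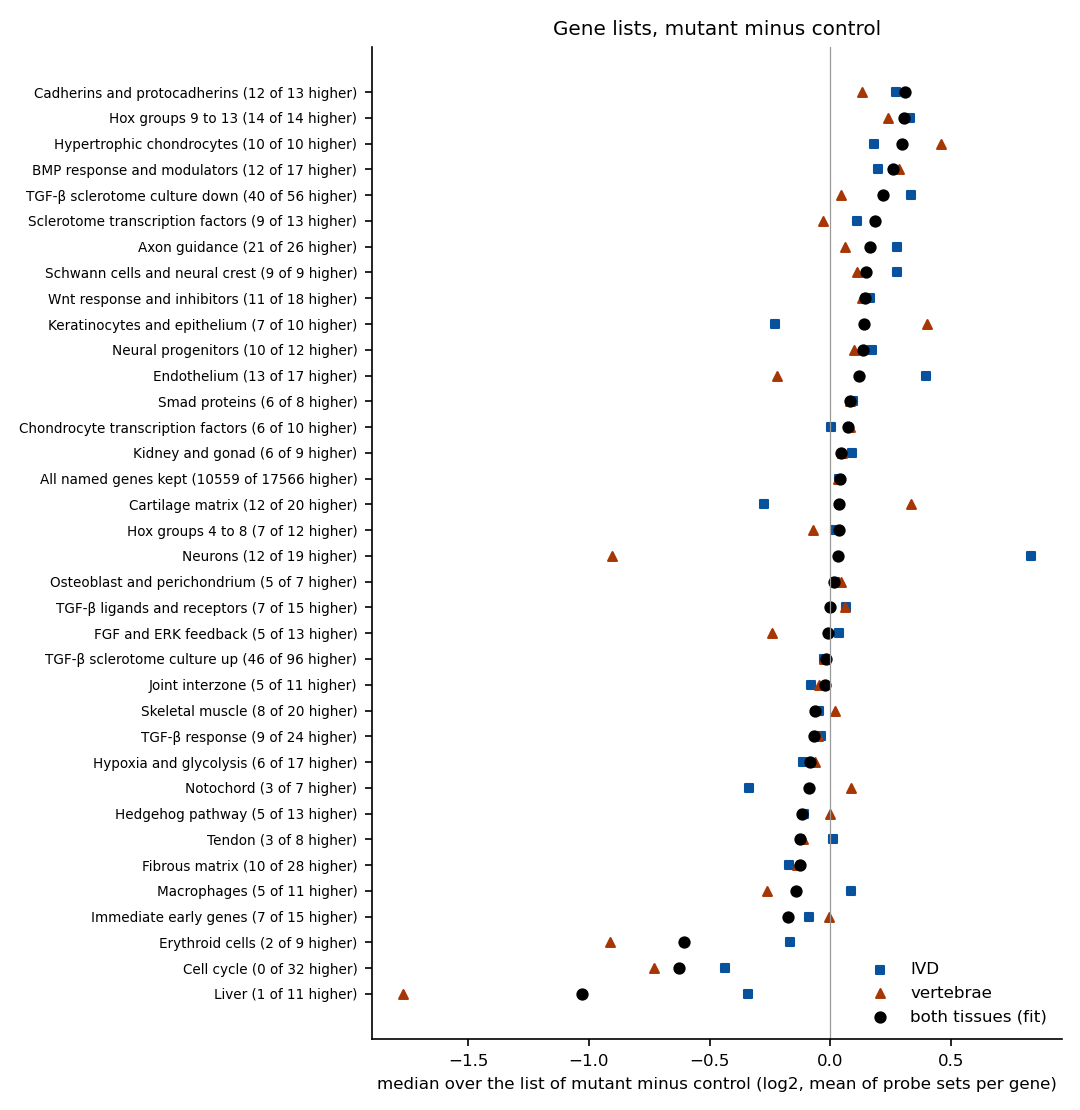
Median over each gene list of the difference between mutant and control (horizontal axis, log2), in IVD (squares), in vertebrae (triangles) and in the fit over both tissues (circles), with the number of genes of higher mean. Of the lists plotted, which leave out the study's tables of changed genes, cell cycle, erythroid and liver genes lie lowest (-0.63, -0.61 and -1.03), and cadherins and posterior Hox genes highest (0.31 each), against 0.04 for all named genes.

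Sex was examined because all control arrays shared one pattern. The separating genes were chosen on these same arrays, so their values in other fits are descriptions. For Lama2 the difference was 1.15 in the 8 arrays with high Xist and 1.20 after adjusting for the mean of Y-linked genes, for Cadps2 1.49 and 1.35, and for Ydjc -0.71 and -0.76. For Osbpl7 it was 0.53 and 0.43, for Id2 0.65 and 0.66, and for Cdkl3 0.33 and 0.40. The unadjusted p was not under 0.05 in either fit for Id2 and Cdkl3, nor in the second for Osbpl7. With only 2 mutant arrays, 1 in each tissue, the comparison within the 8 arrays rests on mutant IVD 3 and mutant vertebrae 3. Whether these 2 came from the same embryo is not stated, and mutant IVD 3 had a joint interzone mean (-0.34) within the control vertebrae range. Among mutants only these 2 had little Y-linked signal, as all controls did. The fit adjusted for Y-linked genes therefore rests largely on them too and is no separate check.

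**Figure D5:**
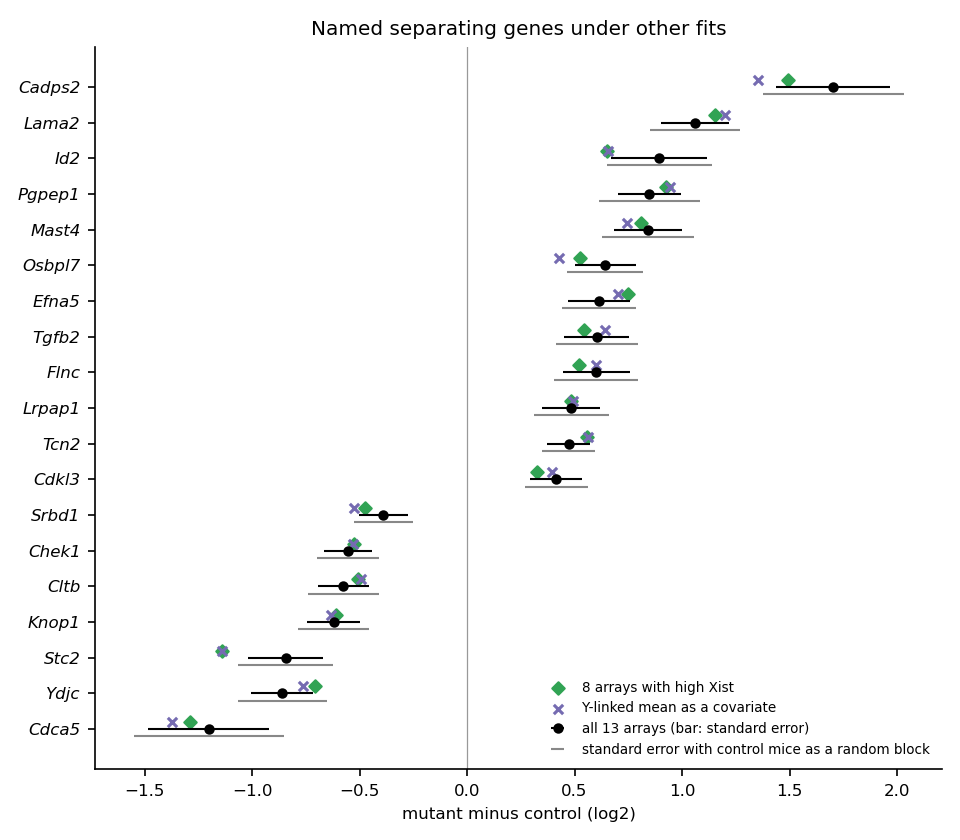
Difference between mutant and control (horizontal axis, log2) for the 19 named genes that separate all arrays. Black bars give the standard error from all 13 arrays. Grey bars give it with control numbers taken as mice in a random block, an assumed pairing, and each mutant array as its own mouse. Diamonds give the 8 arrays with high Xist, and crosses the fit after adjusting for the mean of Y-linked genes. All 19 keep their sign in each fit, which for the 8 arrays follows from the separation itself. The fit after adjusting rests largely on mutant IVD 3 and mutant vertebrae 3, as the fit to the 8 arrays does.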

How the data were processed

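Laser-captured presumptive IVD and vertebrae of E13.5 embryos were measured in 13 samples, with 50 ng of total RNA and 2 rounds of amplification before hybridisation to Affymetrix mouse GeneChip arrays. The authors normalized the arrays by RMA in GeneSpring and deposited log2 values relative to each probe set's median over the arrays, so that absolute levels are lost. Groups came from the sample titles and genotype labels.

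Genotype was tested with tissue as a covariate by limma 3.58.1 on all 45037 probe sets without AFFX controls, with Benjamini-Hochberg adjustment over all of them and a threshold of 0.05. Probe sets annotated to X- and Y-linked genes entered the fit and were left out of counts and names, while those without a gene name were not screened. Probe sets were named by the platform annotation, and only those with 1 gene name are named. Differences are mutant minus control. A gene mean is the mean of all probe sets of a gene.

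The genes named are the separating genes with the smallest p (up to 12 in each direction), up to 6 in each direction among those at least 2-fold in both tissues at an unadjusted p under 0.05, the 3 members of each list with the largest differences, Tgfbr2, and others, including further list members, chosen after their values were seen. Members and lists were chosen with earlier results of these data known. The 31 alternatives included replicate blocks, sex and liver covariates, quantile normalization, array weights, gene means and leaving out arrays. Only the main fit was run on simulated data, with independent noise in each array and so without shared mice.

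Labels do not say which control numbers share a mouse. Over the control numbers the deviations of IVD and vertebrae from their group means correlated at 0.80, 0.57 and 0.57, and over the mutant numbers at -0.40, 0.24 and -0.15. Promoters came from RefSeq's GRCm38.p6, matched by symbol.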

Additional observations from a re-analysis of the deposited data

Results flagged for a closer look

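In 4 of 70 sets of values examined over the 4 mutant IVD arrays, 1 array lay far from the other 3. Chance alone sets 1 array apart in about 1 in 20 sets. Only mutant IVD has 4 arrays, so no other group was examined. Mutant IVD 2 had a value of 0.24 for Tgfbr2 probe set 1425444_a_at and the array mean of 0.36 for the axon guidance list. Mutant IVD 3 had a mean of 0.44 for Schwann cell and neural crest genes, and mutant IVD 4 a mean of 1.88 for skeletal muscle genes.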

How the results depend on the processing

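Of the 31 alternatives, some moved the counts. Against 0 probe sets called, 73 at least 2-fold higher and 66 lower at an unadjusted p under 0.05, 39 that separate the genotypes and 86 at least 2-fold in both tissues, the fit adjusted for the mean of Y-linked genes called 3 and gave 319 higher and 194 lower. The 8 arrays with high Xist gave 338 and 147, with 3128 separating and 204 in both tissues. Array weights called 1 (Cadps2, 1.87) and gave 126 higher, the unequal variance test gave 35 lower, and leaving out the 4 arrays with liver transcripts gave 124 higher and 355 separating. Gene means gave 11 higher, 22 lower, 16 separating and 16 in both tissues. Leaving out 1 array gave 0 to 1 called (1 without control vertebrae 2), 63 to 131 higher (131 without mutant vertebrae 1), 36 to 165 lower (165 without control IVD 3 and 36 without mutant vertebrae 1), 56 to 170 separating (170 without control vertebrae 2) and 73 to 234 in both tissues (234 without control IVD 3). Leaving out both control arrays of a number gave 122 higher and 174 separating for number 1. For number 2 it gave 1 called, 141 lower, 343 separating and 224 in both tissues, and for number 3 it gave 379 lower, 379 separating and 373 in both tissues. Fewer arrays are easier to separate by construction, and for the other moves the cause was not tested. Tgfbr2 probe set 1425444_a_at, at -0.01, changed sign with the fixed array number block (0.00308), without the liver arrays (0.0415), without control vertebrae 1 (0.00236), without control IVD 3 (0.00195) and without mutant IVD 4 (0.00308), and it ran from -0.0534 to 0.00308 over single arrays left out. Replicate block fits called 0 probe sets. With control numbers as mice 65 were at least 2-fold higher and 50 lower, with a random block of array number 73 and 59, and with a fixed block 87 and 98. The deposited values hold no signal over background, so a filter on dim probes was not run.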

Other observations

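The few calls made by alternatives are given as values. After adjusting for the mean of Y-linked genes, limma called an unnamed probe set (1438737_at, difference 2.07), C130021I20Rik (1.67) and Zic5, a zinc finger gene of neural progenitors (2.03), each at an adjusted p of 0.0402. None of the 3 was called over the 13 arrays without the covariate, where their differences were 0.68, 0.58 and 0.99. The adjusted fit rests largely on mutant IVD 3 and mutant vertebrae 3, the mutant arrays with little Y-linked signal. Mutant IVD 3 had the highest means of all arrays for neurons (2.97) and neural progenitors (0.58). Mutant vertebrae 3 had -0.60 and 0.33. The part of neural cells in these calls was not tested. Array weights called Cadps2 at an adjusted p of 0.03. Probe set 1436398_at, which has no gene name, was called without control vertebrae 2 (adjusted p = 0.00262) and without both control arrays numbered 2 (adjusted p = 0.0119).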
